A study of Mus musculus with 17 samples.

Results

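Oxidative phosphorylation, the process by which mitochondria turn the oxidation of nutrients into ATP, was examined across bulk RNA-seq of immunopanned mouse astrocytes through the genes that encode its subunits. The members were rows of the count table whose symbols follow the main naming series of subunits of respiratory complexes I to IV or of the ATP synthase (complex V). Pseudogenes were left out, and a mean of at least 10 counts over the 17 libraries was required. Subunits outside these naming series, such as Cyc1 of complex III and Ndufab1 of complex I, were not included. Of 104 rows that matched by symbol among 56691 gene rows, 94 were kept, comprising 11 of 13 mitochondrially encoded and 83 of 91 nuclear encoded subunits. The nuclear members were 38 of complex I, 4 of complex II, 8 of complex III, 16 of complex IV and 17 of complex V. Just inside the minimum lay Ndufa11b with a mean of 10.2 counts and Cox8b with 16.0. Just outside it lay Ndufa4l2 with 4.47, Ndufs6b with 4.24 and Cox4i2 with 3.59. Mt-Atp8 and mt-Nd4l were listed at 0 counts in every library. Set against 691486174 gene counts, a count of 0 allows a share of up to 4.34e-07% for counting error alone. This limit does not cover transcripts that the libraries or the counting could not assign to these genes.

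Astrocytes were purified from the brains of P2 C57BL/6 mice without olfactory bulbs, cerebellum or meninges, by depletion of CD45-positive and O4-positive cells and selection on HepaCAM, and were kept in serum-free medium with HB-EGF, a growth factor for astrocytes. SAG, an agonist of the Hedgehog receptor component Smoothened, was given at 500 ng/ml from day 3 in vitro for 3 days beside its vehicle DMSO, with 3 libraries each. FGF2 (4 libraries) and FGF10 (3 libraries), ligands of FGF receptors, were given at 50 ng/ml from day 2 in vitro for 7 days beside PBS (4 libraries). The labels name no batch and do not say which replicates came from separate mice, so p-values measure the spread between these culture libraries, which may in part be technical. Libraries held 17481727 to 68342287 gene counts (median 37173676). The summed level of 10 astrocyte markers was 3399 to 5478 CPM (counts scaled to 1000000 per library) in all 17 libraries, whereas 8 microglial markers summed to 0 to 4.36 CPM, with Aif1, Csf1r and C1qb at 0 throughout.

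The respiratory chain passes electrons from NADH (complex I) and succinate (complex II) through ubiquinol and cytochrome c (complex III) to oxygen (complex IV), and the proton gradient so formed drives complex V. Complexes I, III, IV and V are built from both genomes, and complex II from the nuclear genome alone. The mitochondrial genes lie on a circular genome that is transcribed as long precursors from both strands, most of them on the same strand, and cut into single RNAs that mostly carry short poly(A) tails, while the nuclear subunits are made in the cytosol and imported. Astrocytes are known for a strongly glycolytic metabolism, yet they hold mitochondria with a full respiratory chain.

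The libraries were read from 3′ ends, so a mitochondrial gene could be counted as itself where its 3′ end occurred nowhere else in the annotation. On GRCm38, a stretch of chromosome 1 (minus strand) carries annotated unprocessed pseudogenes of neighbouring mitochondrial genes, from the end of mt-Co1 to the start of mt-Nd4. Over their aligned bases, the copies of mt-Co2 (Gm28661, chr1:24614885-24615565, 681 bases) and mt-Co3 (Gm28437, chr1:24613189-24613971, 783 bases) had 0 mismatches. The last 60 bases of 5 mitochondrial genes are shown as examples of shared and unshared ends. Counts did not follow sharing throughout, as given below for mt-Co1, mt-Nd6 and mt-Atp8, which are not printed. Whether sharing set the counts was not tested. Capitals mark bases that lie in a 50-base window also found, on either strand, in an annotated transcript outside the mitochondrial genome, and all 5 are on the plus strand. They end mt-Co2 at chrM:7637-7696, mt-Co3 at chrM:9331-9390, mt-Nd1 at chrM:3648-3707, mt-Nd4 at chrM:11485-11544 and mt-Cytb at chrM:15229-15288.
mt-Co2: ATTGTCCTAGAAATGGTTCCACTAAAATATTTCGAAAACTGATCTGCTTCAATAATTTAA
mt-Co3: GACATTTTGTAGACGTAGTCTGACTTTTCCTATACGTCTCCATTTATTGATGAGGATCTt
mt-Nd1: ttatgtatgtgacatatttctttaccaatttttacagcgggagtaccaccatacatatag
mt-Nd4: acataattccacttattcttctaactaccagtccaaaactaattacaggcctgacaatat
mt-Cytb: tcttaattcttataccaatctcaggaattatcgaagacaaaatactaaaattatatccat

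Of the 251 windows of 50 bases in the last 300 bases of a gene, none was found elsewhere for mt-Nd1, mt-Nd4, mt-Nd6 or mt-Cytb. For mt-Nd5 1.99% and for mt-Nd2 31.9% of them were, and for mt-Co1, mt-Co2, mt-Atp6, mt-Co3 and mt-Nd3 98.8% to 100%. Nearly all mitochondrial counts lay on 6 members. In counts per library, mt-Nd2 had a mean of 970812, mt-Nd4 of 737506, mt-Cytb of 634936, mt-Nd1 of 449015, mt-Co1 of 189215 and mt-Nd5 of 101210, and none of them was at 0 in any library. These encode 4 membrane subunits of complex I, the cytochrome b of complex III and the catalytic subunit of complex IV. The other 5 drew few reads, with means of 364 counts for mt-Nd3, 334 for mt-Nd6, 99.5 for mt-Co3, 68.2 for mt-Co2 and 66.9 for mt-Atp6. Mt-Co2 was at 0 in 9 libraries, mt-Atp6 in 10 and mt-Co3 in 13. Mt-Nd6, which is encoded on the opposite strand from the other mitochondrial members, was low although none of its windows was shared. Of the 2 genes at 0 counts throughout, mt-Nd4l shared 98.8% of its 248 windows, with Gm10222, and mt-Atp8 0 of its 155.

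For mt-Nd3, most counts stood on the copy. Its pseudogene Gm28438 (chr1:24612775-24613119) had 7760 to 70568 counts per library with a mean of 28169, whereas mt-Nd3 itself had 0 to 1423. Over 342 aligned bases both sequences had 0 mismatches. For mt-Co1, whose copy Gm29216 matches its last 483 bases with 1 mismatch, the opposite was seen, with 80274 to 379494 counts on mt-Co1 and 0 to 641 on the copy. The chromosome 1 copies of mt-Co2, mt-Atp6, mt-Co3 and mt-Nd4l had means of 18.5, 76.4, 27.2 and 29.0 counts. Windows of some genes also lay in further annotated genes, whose counts were not examined. These were Gm13340 for mt-Co1, Gm13341 for mt-Co2, AC124578.3 for mt-Atp6, Gm13339 for mt-Nd2 and Gm11407 for mt-Nd5. How the authors' counting assigned reads that match both loci is not stated, so the levels of mt-Nd3, mt-Co1, mt-Co2, mt-Co3 and mt-Atp6 are uncertain, and the comparisons below rest on the 6 abundant genes, of which mt-Co1 shares its end and mt-Nd2 a stretch of it.

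**Figure D1:**
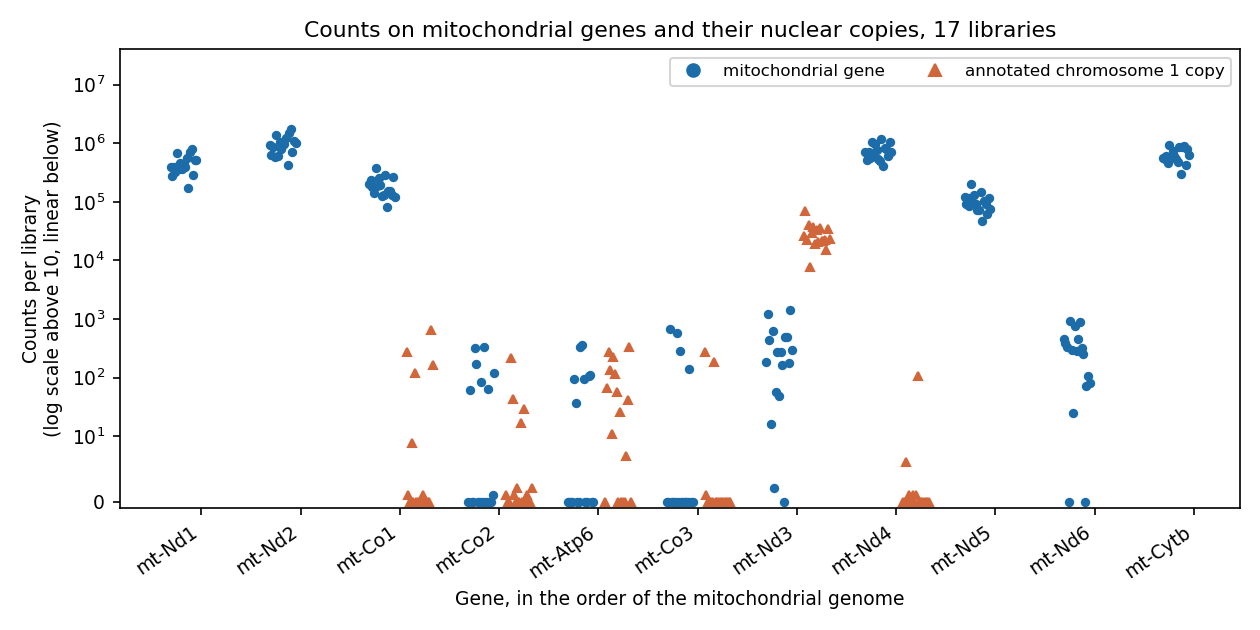
Counts per library (y axis, logarithmic above 10 and linear below) for the 11 mitochondrially encoded members (circles) and, where one is annotated, their chromosome 1 copy (triangles), 1 point per library for 17 libraries. The 6 abundant genes lie far above the other 5 in every library, and for mt-Nd3 the copy lies far above the gene.

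Across the cultures, the mitochondrially encoded members took 5.06% to 10.6% of each library's gene counts. The share was 5.97, 5.06 and 7.71% in the DMSO libraries, 6.52, 6.83 and 7.97% in SAG, 7.42, 7.95, 7.55 and 7.86% in PBS, 7.77, 8.13, 8.39 and 10.6% in FGF2 and 8.52, 7.83 and 8.21% in FGF10. The means were 6.25% ± 1.35 (SD, n = 3), 7.11% ± 0.762 (SD, n = 3), 7.70% ± 0.254 (SD, n = 4), 8.73% ± 1.29 (SD, n = 4) and 8.19% ± 0.345 (SD, n = 3). In the order of these means (DMSO, SAG, PBS, FGF10, FGF2) the libraries of neighbouring groups overlapped, and the extremes were single libraries, DMSO 2 and FGF2 4. The 2 mitochondrial ribosomal RNAs, which are not members, took a further 7.49% to 12.5%. In bulk RNA, fewer cells of a type and less RNA per cell cannot be told apart.

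The nuclear encoded members together took 1.55% to 2.52%. Their share was 1.56, 1.80 and 1.63% in DMSO, 1.82, 1.87 and 1.84% in SAG, 1.69, 1.68, 2.22 and 2.24% in PBS, 1.71, 1.55, 2.52 and 2.24% in FGF2 and 1.65, 1.88 and 2.18% in FGF10. The 3 SAG libraries all lay above the 3 DMSO libraries, and in the FGF experiment replicates 3 and 4 of every group lay above replicates 1 and 2. Mitochondrial counts outnumbered nuclear ones by a ratio of 2.82 (DMSO 2) to 5.24 (FGF2 2). The nuclear share did not follow the mitochondrial one closely, with a Pearson r of 0.40 and a Spearman rho of 0.28 over the 17 libraries, which share their totals as denominators and come from separate experiments.

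**Figure D2:**
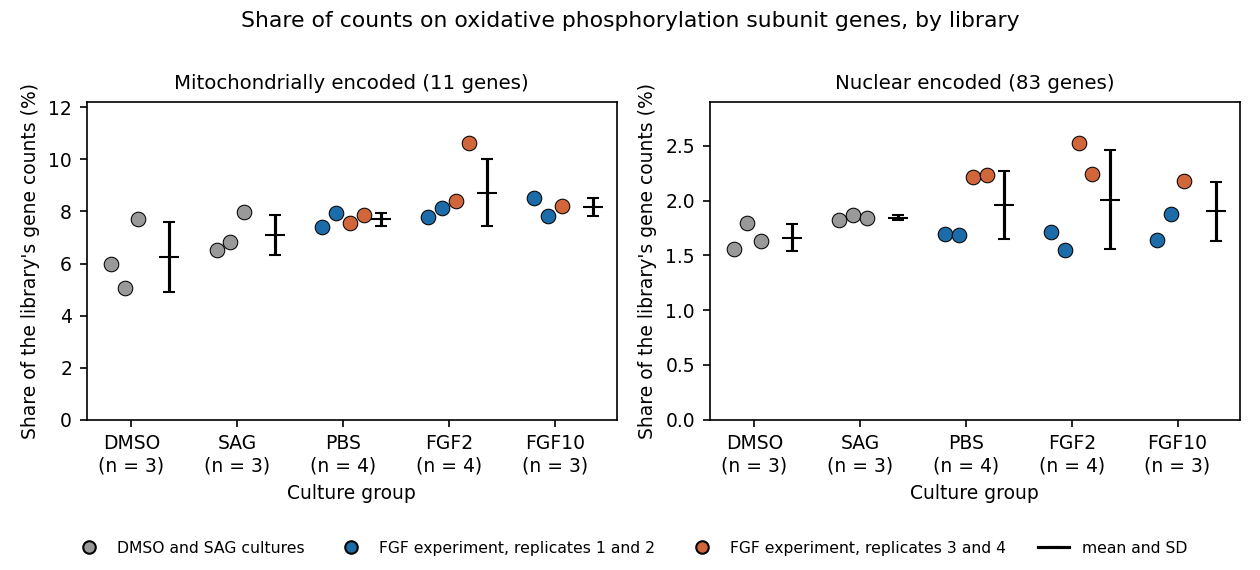
Percent of each library's gene counts on the 11 mitochondrially encoded (left) and 83 nuclear encoded (right) members, by group, 1 point per library with group mean and SD. Mitochondrial shares of groups next to each other in the order of means overlap, and the nuclear shares of the FGF experiment lie between 1.55% and 1.88% in replicates 1 and 2 and between 2.18% and 2.52% in replicates 3 and 4.

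Among nuclear subunits, the summed CPM over members was 6027 for complex I, 504 for complex II, 1876 for complex III, 4836 for complex IV and 5676 for complex V. Since 1 read stands for 1 transcript end in these libraries, CPM was not divided by length. The highest levels were those of Cox8a (941 CPM as a mean of 17 libraries), Atp5g3 (707), Cox6c (679.9), Cox7c (661) and Atp5md (621). Cox8a, Cox6c and Cox7c are small structural subunits of complex IV, and Atp5md is an accessory subunit of the ATP synthase. In complex I, the accessory subunit Ndufc2 led with 494 CPM, and in complex III the hinge protein Uqcrh with 562. Succinate dehydrogenase was led by its membrane anchor Sdhc (200.5 CPM), whereas the other anchor, Sdhd, had 23.7. Of the core subunits that carry redox centres of complex I, the iron-sulfur protein Ndufs8 had 27.2 CPM and the flavoprotein subunit Ndufv1 86.7.

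Where a subunit exists in several isoforms, the widely expressed form prevailed. Cox8a had 941 CPM against 0.437 for the muscle form Cox8b, Cox6a1 397 against 0.580 for Cox6a2, and Cox7a2 422 against 6.38 for Cox7a1. Cox6b1 had 518 CPM and Cox6b2, known from testis, 71.6, so that this alternative form was readily counted in every library, between 31.6 and 135 CPM. Cox4i2 and Ndufa4l2, isoforms induced by low oxygen in other cells, did not reach the minimum count. The 3 genes for the same mature c subunit of the ATP synthase ring differed widely, with Atp5g3 at 707, Atp5g1 at 59.1 and Atp5g2 at 8.31 CPM. Of the windows at the 3′ end of Atp5g2, however, 98.4% also occur in other annotated genes (Gm10175 and Gm10231), so its level is uncertain. The same held for 99.2% of the windows of Cox7c, which was nevertheless among the highest. In all, 30 of 80 nuclear members with a matched transcript shared at least 1 window with another gene, and 3 shared more than 90% of them.

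Nuclear respiratory factor 1, GABP (an ETS factor) and YY1 are known regulators of respiratory genes. For 68 of 83 nuclear members a RefSeq window of 250 bases before to 50 after the start site was at hand (GRCm38.p6). GCATGCGC, the core of the NRF1 motif, was present on either strand in 10 of the 68 (14.7%) and in 2.8% of all 27025 promoter windows. CCGGAAG, the ETS core, was found in 16 (23.5%, against 9.12% of all), and AAGATGGC, the YY1 motif, in 9 (13.2%, against 2.88%). Any of the 3 occurred in 30 members (44.1%) and 13.8% of all windows. For each motif, the window of the most abundant member that holds it is shown as an example, with the motif or its reverse complement in capitals. The part of these motifs in the subunit levels was not tested. A match is a description of letters and not of binding. The windows are Atp5k (subunit e, chr5:108434350-108434649) for NRF1 with 2 matches that overlap on opposite strands, Cox8a (chr19:7217567-7217866) for ETS with 2 matches, and Atp5j2 (subunit f, chr5:145191492-145191791) for YY1, all on the minus strand.
Atp5k: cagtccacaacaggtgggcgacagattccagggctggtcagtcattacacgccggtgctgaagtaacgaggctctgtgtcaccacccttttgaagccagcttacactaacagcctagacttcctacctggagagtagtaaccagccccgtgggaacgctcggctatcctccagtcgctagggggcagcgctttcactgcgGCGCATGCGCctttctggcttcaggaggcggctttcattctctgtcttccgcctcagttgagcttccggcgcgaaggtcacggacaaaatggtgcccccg
Cox8a: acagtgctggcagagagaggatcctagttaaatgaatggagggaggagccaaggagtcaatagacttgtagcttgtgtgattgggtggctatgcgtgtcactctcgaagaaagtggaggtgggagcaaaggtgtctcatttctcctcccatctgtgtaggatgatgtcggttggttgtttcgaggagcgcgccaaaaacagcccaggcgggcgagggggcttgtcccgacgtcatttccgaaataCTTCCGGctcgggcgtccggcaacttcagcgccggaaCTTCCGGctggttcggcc
Atp5j2: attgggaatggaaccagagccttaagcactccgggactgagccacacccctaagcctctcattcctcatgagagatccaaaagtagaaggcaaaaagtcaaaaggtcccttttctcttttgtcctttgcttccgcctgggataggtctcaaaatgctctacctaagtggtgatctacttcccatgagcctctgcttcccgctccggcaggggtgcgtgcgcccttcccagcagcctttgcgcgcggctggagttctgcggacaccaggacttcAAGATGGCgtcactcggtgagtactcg

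The first comparison asked how 3 days of Hedgehog pathway activation changed the astrocytes. Under SAG, 15 of 17 complex V subunits had a log2 fold change above 0 (median 0.30), as had 57 of the 80 nuclear members tested (71.2%, median 0.19), where 48.9% of all genes tested did (median -0.02). No member passed an adjusted p of 0.05, among 8 genes called of 12538 (0.0638%) by the quasi-likelihood test of edgeR, adjusted after Benjamini and Hochberg. At the study's stricter threshold (adjusted p under 0.01, absolute log2 fold change above 1), 4 genes passed by edgeR (0.0319%) and no member. The study applied its threshold to DESeq2 results, so the counts are not directly comparable. Libraries did not overlap and were higher under SAG for 9 of 80 nuclear members (11.2%), 6 of them in complex V, against a background of 5.96%, and lower for 1 (background 8.21%). An unadjusted p under 0.05 was reached by 4 of 80 nuclear members (5%), all of them higher (background 2.63%) and all in complex V, and by none of those lower (background 3.06%).

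Atp5d, the δ subunit of the catalytic head (chr10:80138632-80145818), was at 365, 239 and 309 CPM in DMSO and at 665, 498 and 383 CPM in SAG, a log2 fold change of 0.78 (SE 0.23, adjusted p = 0.5) by edgeR. The lowest SAG library stood just above the highest DMSO library. Atp5b, the catalytic β subunit (chr10:128083273-128090391), was at 293, 465 and 453 CPM in DMSO and 526, 583 and 587 CPM in SAG (0.51 (SE 0.20, adjusted p = 0.75), edgeR), without overlap. Atp5mpl, a small membrane subunit (chr12:111961375-111966977), was at 349, 379 and 373 CPM and 433, 533 and 523 CPM (0.46 (SE 0.17, adjusted p = 0.69), edgeR). Its DMSO libraries lay close together and all SAG libraries lay above them. Atp5j, coupling factor 6, was at 223, 253 and 217 CPM in DMSO and 227, 377 and 384 CPM in SAG, where SAG 1 lay within the DMSO range (0.54 (SE 0.23, adjusted p = 0.82), edgeR). The γ subunit Atp5c1, which turns within the head, was at 59.4, 102 and 76.6 CPM and 118, 140.3 and 104 CPM (0.63 (SE 0.29, adjusted p = 0.89), edgeR). A two-sided exact permutation test gave p = 0.1 for Atp5d, Atp5b, Atp5mpl and Atp5c1, the smallest value that 3 against 3 allows. Libraries without overlap always give this value, so it restates the lack of overlap. These genes were named for their small unadjusted p in the same data. DESeq2's Wald test, tried as an alternative, called Atp5d (adjusted p = 0.0075) and Atp5mpl (adjusted p = 0.028) but no other member, with 367 genes called in all.

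**Figure D3:**
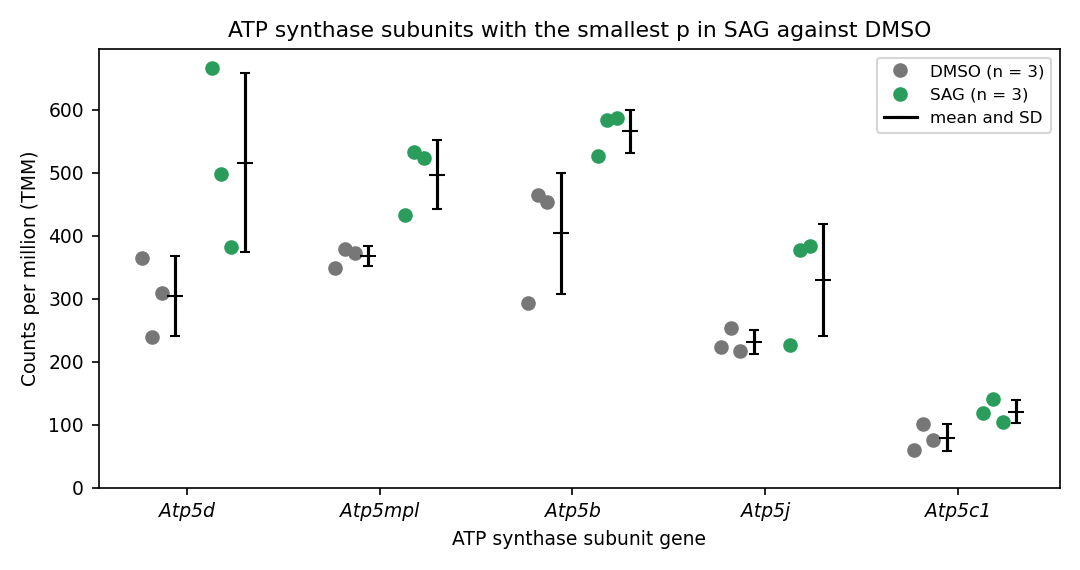
CPM (TMM-normalized) of the 5 ATP synthase subunit genes with the smallest unadjusted p in SAG against DMSO, 1 point per library with mean and SD (n = 3 each). All 3 SAG libraries lie above all 3 DMSO libraries for 4 of the genes, and for Atp5j SAG 1 falls within the DMSO range.

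Among the other complexes under SAG, complex I had 22 of 37 members above 0 (median 0.15), complex II 2 of 4 (median -0.01), complex III 7 of 8 (median 0.26) and complex IV 11 of 14 (median 0.11). Cox5a, a matrix-side subunit of complex IV, was at 139.8, 136 and 144 CPM in DMSO and 216, 185 and 144 CPM in SAG, the lowest SAG value almost equal to the highest DMSO value. Sdha, the flavoprotein of succinate dehydrogenase, was at 142, 149 and 87.6 and 150.2, 172 and 169 CPM. Ndufa11, an accessory subunit of the membrane arm, was the 1 nuclear member whose SAG libraries all lay below DMSO, with 134, 124 and 124 CPM in DMSO and 91.2, 114 and 98.0 CPM in SAG (-0.31 (SE 0.24, adjusted p = 1.0), edgeR). The 6 abundant mitochondrial genes all had log2 fold changes above 0, from 0.07 for mt-Nd2 to 0.35 for mt-Nd1, with 95% intervals that lay within ±1 and included 0. Mt-Nd1 was at 8055, 6089 and 10574 CPM in DMSO and 9176, 10206 and 11595 CPM in SAG, and the groups overlapped. Proliferation markers (4 of 4 tested with log2 fold changes above 0, median 1.00, none called) summed to 128 to 214 CPM in DMSO and 180 to 343 CPM in SAG, and 8 neuronal markers to 713 to 913 and 514 to 705 CPM, with Slc17a7 at 0. The 4 ependymal markers summed to 152 to 257 CPM in DMSO and 69.8 to 145 CPM in SAG, without overlap. Single genes made up much of the neuronal and ependymal sums. Map2 had means of 738 CPM in DMSO and 549 CPM in SAG, and Foxj1 of 186 and 111 CPM. The 10 astrocyte markers summed to 4178 to 4497 and 3627 to 4295 CPM, with 5 of 10 above 0. The 2 with the smallest p went in opposite directions. Gfap was lower under SAG (log2 fold change -2.08, SE 0.35, unadjusted p = 7.9e-05, edgeR) and Aldh1l1 higher (0.80, SE 0.24, unadjusted p = 0.0061, edgeR). The 8 oligodendrocyte lineage markers summed to 482 to 630.1 and 463 to 573 CPM, with 2 of 6 tested above 0 and Sox10 at -1.11 (SE 0.33, unadjusted p = 0.0062). Their part in the subunit levels was not tested.

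FGF2 and FGF10 were each compared with the same PBS libraries, and with each other, to ask what each ligand did over 7 days. In none of the 3 comparisons was a member or any other gene called by edgeR at an adjusted p of 0.05, a background of 0% of 12744, 13309 and 13493 genes. Genes with an unadjusted p under 0.05 numbered 223, 305 and 324. Of the nuclear members, 1 was lower at that level in FGF2 against PBS (background 0.895%) and in FGF10 against PBS (1.35%) and 1 higher in FGF2 against FGF10 (1.53%), with none in the other directions (0.855%, 0.939% and 0.867%). DESeq2 called 9, 37 and 28 genes, none of them a member. FGF2 against PBS had 55 of 80 nuclear log2 fold changes above 0 (68.8%, against 50.1% of all genes) and a median of 0.09. FGF10 against PBS had 32 of 80 above 0 (40.0%, against 49.9%) and a median of -0.04. Between FGF2 and FGF10, 61 of 80 were higher under FGF2 (76.2%, against 50.5%), with a median of 0.14 and no member without overlap between the ligands (background 2.33% higher and 2.57% lower). PBS and FGF2 hold replicates 3 and 4, the libraries with higher nuclear shares, whereas FGF10 holds only replicate 3 of these. The comparisons with FGF10 are thus not balanced for replicate number. The splits also moved with single libraries. Without FGF2 3, the library with the highest nuclear share, 31 of 80 members were above 0 in FGF2 against PBS and 39 of 80 in FGF2 against FGF10. Without PBS 1 there were 39 of 80 for FGF2 and 17 of 80 for FGF10 against PBS, and for FGF10 against PBS there were 44 of 80 without PBS 3 and 46 of 80 without FGF10 1. Within replicates 1 and 2 alone the counts were 40, 46 and 27 of 80 for FGF2 against PBS, FGF10 against PBS and FGF2 against FGF10.

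A single nuclear subunit lay below PBS without overlap under both ligands. Ndufb9, an accessory subunit of complex I of the LYR protein family (chr15:58933756-58939488), was at 176, 158, 138 and 154 CPM in PBS, 102, 65.2, 131 and 106 CPM in FGF2 and 101, 113 and 78.6 CPM in FGF10. All 4 PBS libraries lay above all 7 ligand libraries. Its log2 fold change was -0.62 (SE 0.24, adjusted p = 1.0) for FGF2 and -0.67 (SE 0.24, adjusted p = 1.0) for FGF10 by edgeR, with unadjusted p of 0.025 and 0.014, and the exact permutation p was 0.029 in each, the smallest the design allows. Both comparisons share the PBS libraries, and the permutation p restates the lack of overlap. It was 1 of 80 nuclear members that lay wholly below PBS under FGF2 (1.25%, background 1.23%), and with Ndufb11 1 of 2 under FGF10 (2.5%, background 2.02%), shares near those of all genes. No nuclear member lay wholly above PBS under either ligand (background 1.22% and 2.77%). Ndufb11, an accessory subunit of the membrane arm, was at 199.6, 134, 147 and 184 CPM in PBS and 129, 130.3 and 115 CPM in FGF10.

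Other members were named by the smallest unadjusted p. Ndufb6 was at 192, 130.2, 261 and 194 CPM in FGF2 and 95.4, 161 and 119 CPM in FGF10 (0.64 (SE 0.29, adjusted p = 1.0), edgeR), with overlap, and 82.9% of its 3′ windows also lie in Smim27. Atp5g1, the regulated c-subunit gene in many tissues, was at 71.5, 51.8, 77.7 and 76.8 CPM in PBS, 48.9, 49.9, 89.4 and 81.6 in FGF2 and 43.2, 53.5 and 42.5 in FGF10. The FGF10 libraries were among the lowest of the experiment, although PBS 2 lay within their range (-0.58 (SE 0.31, adjusted p = 1.0) for FGF10 against PBS, edgeR). Uqcrfs1, the Rieske iron-sulfur protein of complex III, had the largest positive log2 fold change of nuclear members in both ligand comparisons, 0.54 and 0.62, and PBS 1 held 12.1 CPM where the other PBS libraries held 47.5, 46.0 and 32.7. Cox4i1, a regulatory subunit of complex IV, was at 398, 378, 329.8 and 258 CPM in PBS, 336, 399, 368 and 305 in FGF2 and 351, 384 and 353 in FGF10.

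The 6 abundant mitochondrial genes were compared in the same way. Under FGF2 their log2 fold changes ran from -0.13 for mt-Co1 to 0.28 for mt-Nd1, and under FGF10 from -0.09 for mt-Nd5 to 0.20 for mt-Nd4. Mt-Nd2, the gene with the most reads, was at 21765, 22826, 27253 and 30240.3 CPM in PBS, 22927, 23974, 31156 and 42703 in FGF2 and 27875, 22771 and 25970.2 in FGF10. FGF2 4 stood above every other library, and the groups overlapped. In all 3 comparisons every 95% interval of these 6 genes included 0 and lay within ±1 on the log2 scale, so that a change of 1 log2 unit lay outside it. For nuclear members the interval lay within ±1 for 64 of 80 in FGF2 against PBS, 62 in FGF10 against PBS and 60 in FGF2 against FGF10. With the replicate number as a block, which the FGF2 and PBS libraries allow, the intervals of these 6 genes in FGF2 against PBS also included 0, for example -0.01 to 0.45 for mt-Nd2 and -0.02 to 0.39 for mt-Nd4 (95%, edgeR). Mt-Nd2 and mt-Nd4 were higher in FGF2 in all 4 pairs, where libraries are paired by replicate number only. Of 80 nuclear members, Ndufa2, Ndufa5 and Uqcrq were higher in all 4 pairs (3.75%, background 6.41%) and Ndufb9 and Ndufb11 lower (2.5%, background 5.88%), genes named here after their values were seen. An unadjusted p under 0.05 was reached in the blocked fit by 1 nuclear member higher, Ndufb6 (background 1.42%), and 1 lower, Ndufb9 (background 1.59%), and no gene was called (0%).

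**Figure D4:**
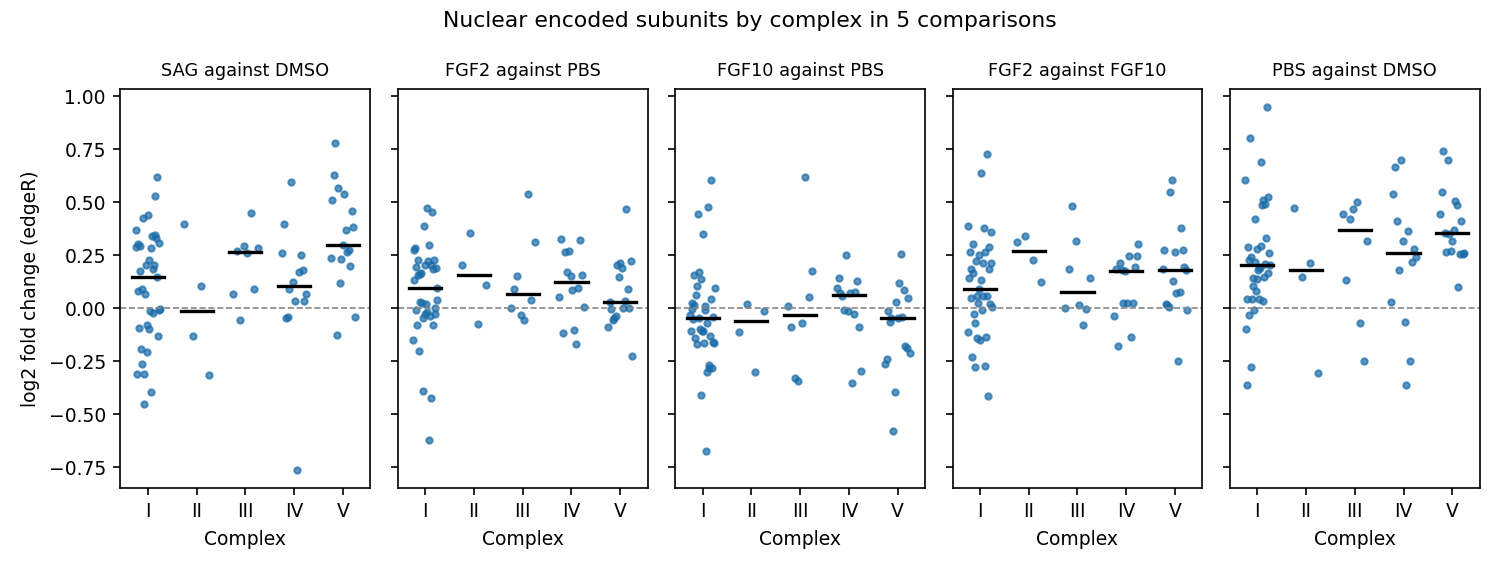
The log2 fold change (edgeR) of each nuclear member tested in 5 comparisons, by respiratory complex, with the median as a bar. Complex V lies above 0 for 15 of 17 members in SAG against DMSO and 17 of 17 in PBS against DMSO, and medians lie near 0 for FGF2 and FGF10 against PBS.

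The vehicle cultures also differed. PBS and DMSO libraries differ in vehicle, days in culture and experiment, which cannot be told apart. The summed nuclear share of PBS 1 and PBS 2 (1.69 and 1.68%) lay within the DMSO range of 1.56 to 1.80%. Only PBS 3 and PBS 4 (2.22 and 2.24%) lay above it. The part of this replicate split in the comparison was not tested. Of 80 nuclear members, 69 were higher in PBS (86.2%, against 51.1% of all genes; median 0.26), including all 17 of complex V (median 0.35), and 8 (10%) were higher at an unadjusted p under 0.05 (background 2.92%), as were mt-Nd1 and mt-Nd2, and 0 lower (background 1.45%). None was called by edgeR (0 of 13271 genes, 0%; 580 at an unadjusted p under 0.05), nor by DESeq2, which called 126 genes. Libraries did not overlap for 7 higher (8.75%, background 3.04%) and 1 lower (1.25%, background 3.41%). Ndufa4, named for complex I and since assigned to complex IV (chr6:11900292-11907497), was at 82.1, 85.5 and 102 CPM in DMSO and 114, 154, 174 and 180.0 CPM in PBS (0.80 (SE 0.25, adjusted p = 1.0), edgeR), without overlap. Uqcrh was the member wholly lower in PBS, at 614, 616 and 620.0 CPM in DMSO and 522, 468, 493 and 576 CPM in PBS. Ndufb9 was at 79.5, 87.8 and 126 CPM in DMSO, so that the PBS libraries lay above these as well (0.69 (SE 0.25, adjusted p = 1.0), edgeR). SAG and PBS cultures were both compared with the same 3 DMSO libraries, and both had Atp5d, Atp5mpl and Cox6b2 above them without overlap. Proliferation markers summed to 96.6 to 963 CPM in PBS and 128 to 214 CPM in DMSO. Astrocyte markers had log2 fold changes above 0 for 6 of 10, 4 of them at an unadjusted p under 0.05 and 3 without overlap, led by Aldh1l1 (0.94, SE 0.25, unadjusted p = 0.0019) and Gja1 (0.96, SE 0.25, unadjusted p = 0.0019), while their sums of 3712 to 5266 CPM in PBS spanned those of 4178 to 4497 CPM in DMSO. The part of these markers was not tested.

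Nuclear members also differed by the replicate numbers of the FGF experiment. Replicates 3 and 4 of PBS and FGF2 and replicate 3 of FGF10 (5 libraries) were set beside replicates 1 and 2 of all 3 groups (6 libraries), as a description without a test, since the labels give no batch and this split was known from earlier results. Of 80 nuclear members, 76 were higher in replicates 3 and 4, with a median log2 difference of 0.41, where 47.5% of all 14553 genes were higher and their median was -0.04. Of the 80, 12 (15%) were higher without overlap and none was lower, against 2.49% and 2.32% of all genes. Medians were above 0 in every complex, from 0.33 in complex I to 0.66 in complex II.

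Sdha lay between 87.6 and 162 CPM in the 6 libraries of replicates 1 and 2 and between 183 and 326 CPM in the 5 libraries of replicates 3 and 4. Atp5b lay between 353 and 476 CPM in the 6 libraries of replicates 1 and 2 and between 660.3 and 936 CPM in the 5 libraries of replicates 3 and 4. Uqcrc2, a core protein of complex III, lay between 192 and 237 CPM in the 6 libraries of replicates 1 and 2 and between 304 and 390.1 CPM in the 5 libraries of replicates 3 and 4. For each of these the sets were separated, by log2 differences of 0.92, 0.90 and 0.71. The others without overlap were Cox5a, Uqcrb, Atp5g3, Ndufa4, Ndufc2, Cox7c, Cox6a1, Atp5a1 and Uqcrq. At least 1 subunit of every complex was thus among them. The 3′ windows of Uqcrc2 all lie also in Pdzd9, so its level is uncertain, as is that of Cox7c.

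The mitochondrial genes did not move as one. Mt-Nd1 lay between 9539.8 and 11114 CPM in the 6 libraries of replicates 1 and 2 and between 12326 and 19129 CPM in the 5 libraries of replicates 3 and 4, so it was higher without overlap. Mt-Co1 lay between 4602 and 5516 CPM in the 6 libraries of replicates 1 and 2 and between 3180.3 and 4136 CPM in the 5 libraries of replicates 3 and 4, and mt-Nd4 and mt-Nd5 were likewise lower without overlap (log2 differences of -0.54, -0.35 and -0.26). The mitochondrial share as a whole was 7.42% to 8.52% in replicates 1 and 2 and 7.55% to 10.6% in replicates 3 and 4, which overlapped. Genes of the tricarboxylic acid cycle and pyruvate dehydrogenase were higher for 15 of 16 and assembly factors for 27 of 46. All 4 proliferation markers were higher without overlap, with sums of 96.6 to 271 CPM against 843 to 1253 CPM, while 9 of 10 astrocyte and 7 of 7 neuronal markers were lower, with sums of 4637 to 5478 against 3399 to 3918 CPM and of 672 to 878 against 647 to 722 CPM. Ependymal markers summed to 310.1 to 486 CPM in replicates 1 and 2 and 78.7 to 223 CPM in replicates 3 and 4, and endothelial and mural markers to 158 to 357 and 41.0 to 99.2 CPM, both without overlap. Cldn5 and Vtn, endothelial and mural markers, were at 0 throughout. Single genes made up much of these 3 sums. In PBS, Map2 had a mean of 662 CPM of neuronal sums of 672 to 878 CPM. Foxj1 had 256 CPM of ependymal sums of 181 to 361 CPM, and Acta2 164 CPM of endothelial and mural sums of 83.5 to 315 CPM. The sums are thus no measure of cell numbers. The part of the markers in the subunit levels was not tested. An interaction of FGF2 with the replicate set was significant for none of 89 members tested and for 2 of 12744 genes (edgeR, adjusted p under 0.05), and 1 member had an unadjusted p under 0.05.

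**Figure D5:**
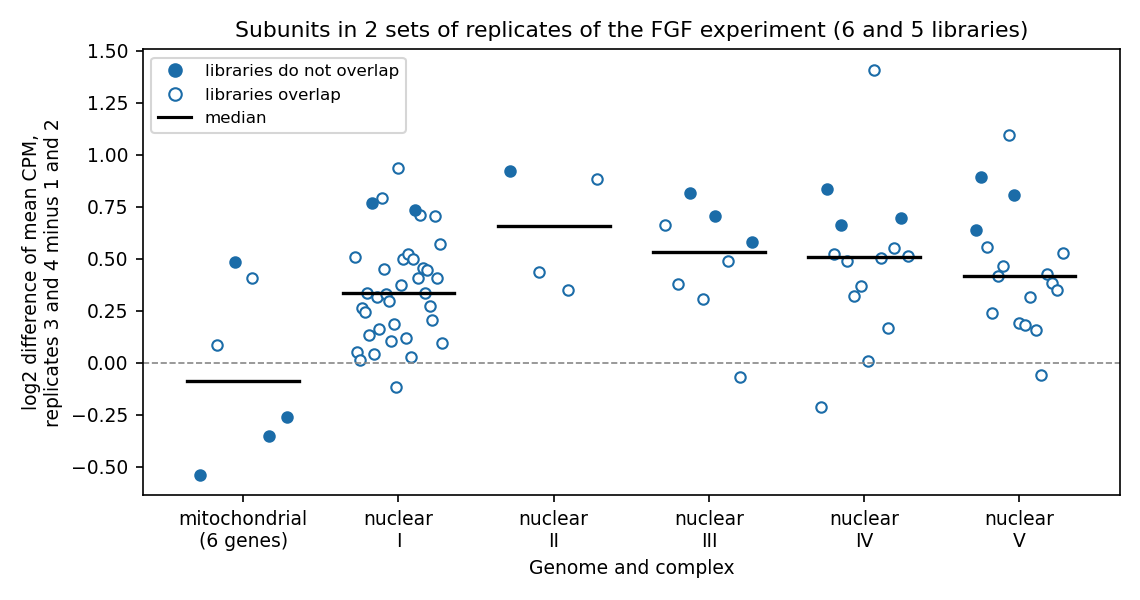
Log2 difference of mean CPM between replicates 3 and 4 (5 libraries) and replicates 1 and 2 (6 libraries) of the PBS, FGF2 and FGF10 cultures for the 6 abundant mitochondrial genes and for nuclear members by complex, with medians as bars. Nuclear medians lie between 0.33 and 0.66, and of the 6 mitochondrial genes mt-Co1, mt-Nd4 and mt-Nd5 lie below 0 with libraries that do not overlap.

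Genes that build or control the chain were read beside its subunits. Under SAG, 26 of 45 assembly factors, 12 of 19 genes of mitochondrial DNA maintenance and expression, 6 of 7 nuclear regulators, 11 of 16 tricarboxylic acid cycle genes and 11 of 14 carriers and porins had log2 fold changes above 0, and none was called by edgeR. The smallest unadjusted p belonged to Mdh2, malate dehydrogenase (0.94, SE 0.25, unadjusted p = 0.0029), and Pdha1, of pyruvate dehydrogenase (1.19, SE 0.41, unadjusted p = 0.015). Under FGF2, 31 of 44, 7 of 19, 5 of 8, 14 of 16 and 9 of 14 of the same lists were above 0, and under FGF10 20 of 45, 7 of 20, 4 of 8, 5 of 16 and 10 of 14, again with none called. Esrra, a nuclear receptor that drives respiratory genes in many tissues, had the smallest p of the regulators in FGF2 against FGF10, with mean levels of 71.4 CPM in FGF2 and 39.2 CPM in FGF10 (log2 fold change 0.87, SE 0.43, unadjusted p = 0.062). In PBS against DMSO the counts above 0 were 20 of 44, 13 of 20, 3 of 8, 12 of 16 and 10 of 14, with none called, and in FGF2 against FGF10 they were 31 of 46, 10 of 21, 3 of 8, 14 of 16 and 5 of 14. No list of supporting genes thus had a member past the threshold by edgeR in any of the 5 comparisons. Under SAG, intervals lay within ±1 on the log2 scale for 1 of 45 assembly factors and 0 of 19 maintenance and expression genes. They did so for 1 of 7 regulators, 4 of 16 tricarboxylic acid cycle genes and 5 of 14 carriers and porins. In the other comparisons too, they did so for a minority of each list. For most of these genes a change of 1 log2 unit was therefore not excluded.

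The precision of the subunit levels followed their abundance. Within groups, the coefficient of variation had a median of 13.8% for the 6 abundant mitochondrial genes and of 23.7% for the 83 nuclear members. For the 58 nuclear members at 100 CPM or more it was 20.8%, close to the 20.7% of the 1565 genes of the whole table at such levels, and for the 19 between 10 and 100 CPM it was 31.1%, against 43.3% for all genes in that range. As a description of likeness, the genes outside the set whose CPM followed the mitochondrial share most closely over the 17 libraries were Romo1 (Pearson r = 0.85), Cep76 (0.85), Anapc13 (0.82), Ung (0.81) and Vps72 (0.80). The 17 libraries come from 2 experiments and share their totals, and no test was made.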

How the data were processed

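The samples were bulk 3′-end RNA-seq libraries of cultured astrocytes. The authors deposited a table of whole-number read counts per gene and library without normalization. The submitters' processing notes name STAR, DESeq2 and the build GRCm38; annotation, strand setting and use of molecular identifiers are not given in the sources used here. Spike-in rows (114 of the table) were left out. Groups and replicate numbers came from the labels, which list 4 FGF2 libraries where the study's methods give 3; all 4 were used. Table columns named Shh were taken as the SAG libraries.

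Counts were fitted per comparison in R 4.3.3 with edgeR 4.0.16 (filterByExpr with minimum count 10 and total 15, TMM, quasi-likelihood test, Benjamini-Hochberg over all genes tested), which was tested on simulated data. Called means an adjusted p under 0.05. SEs were taken from the F statistic, and CPM shown are TMM-normalized over all 17 libraries. DESeq2 1.42.0, other scalings and filters, a replicate block, the replicate set as a term and each library left out were alternatives. No 2 libraries of a group were alike within sampling noise. Same-numbered FGF2 and PBS libraries deviated together in all 4 pairs (r of 0.11 to 0.13), but only 2 of 4 matched their own number best. Pairing of single libraries was thus not shown, and the replicate number served as a block only as an alternative. Copies were searched in GENCODE M21 transcripts (GRCm38) with Python 3; 80 of 83 nuclear members matched by symbol. Promoter windows are from RefSeq (GRCm38.p6).

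Named genes were all mitochondrial members, core subunits, isoform pairs, the 5 highest nuclear members and, per comparison, up to 5 higher and 5 lower nuclear members by smallest p; members, lists and the replicate split were chosen with earlier results of these data known. Intervals and limits for a count of 0 cover counting error only.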

Additional observations from a re-analysis of the deposited data

Results flagged for a closer look

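In groups of 4 libraries (PBS and FGF2), 1 library stood apart from the other 3 by Dixon's 95% limit in 11 of 148 groups examined. The rate of about 1 in 20 by chance holds for normally distributed values and not for sparse counts. Where 3 libraries are at 0, any count in the other passes the limit, as for mt-Co2, Cox6a2 and Cox8b below. The number of groups that stood apart is thus no measure of an excess over chance. For Ndufs8, an iron-sulfur subunit of complex I, PBS 3 held 57.0 CPM where the other PBS libraries held 22.4 to 22.8. Ndufb3 was at 384 CPM in PBS 1 against 239.8 to 245 in the others, and Ndufc1 at 291 CPM in FGF2 3 against 166 to 178. Ndufa7 was low in FGF2 2, at 210.5 CPM against 320.1 to 330.1. Atp5d was at 433 CPM in PBS 4 against 367 to 377, and mt-Cytb at 17261 CPM in PBS 2 against 14887 to 15238. The remaining 5 were sparse genes: mt-Co2 at 2.45 CPM in PBS 3 where the others were at 0, Cox6a2 at 7.79 CPM in PBS 3 and at 2.06 CPM in FGF2 4 with the others at 0, Cox7a1 at 21.8 CPM in PBS 4 against 0 to 3.31, and Cox8b at 0.17 CPM in FGF2 2 with the others at 0.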

How the results depend on the processing

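Across 77 alternative fits of the 5 comparisons, a member was called in 1, DESeq2 for SAG against DMSO (2 members, Atp5d and Atp5mpl). Of 1232 alternative values of 80 named members, 44 changed sign and none of those was called in either fit. Genes called in SAG against DMSO numbered 8, but 76 with no filter, 42 when genes were kept at a mean of 10 counts or more, 4 with all groups in a single fit and 367 by DESeq2; leaving out each library gave 1 (without DMSO 1), 2 (without SAG 2 or 3), 5 (without DMSO 2 or 3) or 7. In PBS against DMSO 0 became 36 with no filter, 4 with the mean filter, 1 with all groups fitted together and 126 by DESeq2. In FGF2 against FGF10 it became 2 with no filter and 28 by DESeq2, and DESeq2 called 9 for FGF2 and 37 for FGF10 against PBS. The cause was not tested. The median of nuclear members ran from 0.13 to 0.24 for SAG, -0.05 to 0.21 for FGF2, -0.14 to 0.04 for FGF10, 0.00 to 0.27 for FGF2 against FGF10 and 0.20 to 0.35 for PBS against DMSO when each library was left out, turning sign for FGF2 without PBS 1 or FGF2 3, for FGF10 without PBS 3 or FGF10 1 and for FGF2 against FGF10 without FGF2 3. With mitochondrial RNA left out of the total, mitochondrial counts were 8.45% of it in SAG, 9.37% in PBS, 10.8% in FGF2 and 9.98% in FGF10, and nuclear counts 1.99%, 2.19%, 2.38%, 2.49% and 2.31% in DMSO, SAG, PBS, FGF2 and FGF10. With the replicate number as a block, SAG against DMSO had 12 genes called and the other comparisons 0, with no member called and nuclear medians of 0.20, 0.07, 0.00, 0.06 and 0.18 in the order above. In FGF10 against PBS and FGF2 against FGF10, same-numbered libraries also deviated together (r of 0.06 to 0.12 and 0.08 to 0.17). In each of these, 2 of 3 matched their own number best. For SAG against DMSO and PBS against DMSO, r was -0.01 to 0.003 and -0.014 to -0.004, with 0 of 3. FGF10 in replicates 3 and 4 alone was not run, having 1 library.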
